A study of Mus musculus with 6 samples.

Results

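The genes described here are the matrix metalloproteinases (Mmp), their tissue inhibitors (Timp) and the ADAMTS proteases of mouse mammary stem cells. The rule takes them by their symbol in the platform annotation: every gene whose symbol begins with Mmp or Adamts and a digit, and the Timp genes, read by a probe set that lists a single gene. That gave 44 genes of 22180 named genes, made up of 22 Mmp, 4 Timp and 18 Adamts genes. The study compared wild-type cells (WT, 3 arrays) with cells labelled Mll3-null (3 arrays). All were cultured mammary stem cells grown as organoids, no array had any other treatment in the labels, and CRISPR was used to generate the lines. MLL3 is the product of Kmt2c, an enzyme that methylates histone H3 at enhancers, and the series is about its deletion. The labels call the arrays of a group biological replicates but do not say whether they came from separate lines, clones or cultures, so p-values measure the spread between these arrays only.

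Matrix metalloproteinases are zinc-dependent enzymes that are made as inactive precursors and cut collagens, laminins, proteoglycans and growth factor carriers around cells. TIMPs bind the active site of these enzymes and hold them in check, and TIMP3 also restrains ADAM and ADAMTS proteases. ADAMTS proteases are secreted relatives that cut large proteoglycans, mature fibrillar procollagens or shape microfibrils. In the mammary gland the balance of these enzymes and inhibitors is known for its part in duct branching, in the breakdown of basement membrane during involution and in tumour invasion.

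Values are log2 expression, where 1 unit is a 2-fold change, and errors are SD over 3 arrays or the SE of a difference. Differences are Mll3-null minus WT. A gene was called changed when its adjusted p (limma, Benjamini-Hochberg over all 22180 genes) was under 0.05. With a mean over 6 a gene is named expressed here, and with a mean under 4 dim. These limits are a convention, since no detection values were used. Array medians ran from 4.35 to 4.40, and precision is limited by having 3 arrays a group. Mll3-null replicate 3 stood apart from the other arrays in its basal markers and in Postn. The summed level of the 7 measured of 8 listed basal markers was 9.19 there, against 12.31 to 13.01 on the other 5 arrays (log2 of the sum), with Krt14, a basal keratin, at 6.65 against 11.74 to 12.43. The luminal markers, 8 of 9 expressed, were highest on Mll3-null replicate 3, with a summed level of 12.74 against 11.94 to 12.41 on the other 5 arrays. All 6 epithelial markers were expressed on average, and their summed level ran from 12.83 to 13.02 over the arrays. Of the other cell types, 0 of 5 measured lymphocyte, 0 of 5 endothelial and 0 of 6 neutrophil markers were expressed, and only Postn of 9 fibroblast and Cd14 of 7 macrophage markers were. Postn, the matrix protein periostin, was also low on Mll3-null replicate 3, at 3.37 against 8.12 to 10.68 on the other 5 arrays, and the summed level of the fibroblast markers was 7.59 there against 8.77 to 10.82. The targeted gene did not separate the groups: Kmt2c was at 6.63, 5.58 and 5.82 in WT and 5.84, 6.42 and 6.07 in Mll3-null cells, and the sources used here do not say where its probe set lies against the altered sequence.

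The largest departures of proteases and inhibitors were on single Mll3-null arrays, and not on the same array for each gene. Mmp3, Mmp10 and Mmp13 were lowest on Mll3-null replicate 2. Timp1, Timp2, Timp3, Adamts1, Adamts5 and Adamts9 were lowest on Mll3-null replicate 3. On Mll3-null replicate 1, Mmp3, Mmp10 and Mmp13 lay from 0.70 to 1.70 log2 units above the WT mean, and the other 6 genes from -0.29 to 0.56 relative to it. None of the 44 genes was called, against 0.00% of all genes, and their adjusted p ran from 0.84 to 0.99. An unadjusted p under 0.05 was found for 5 of the 44, 3 higher and 2 lower in Mll3-null cells, beside 4.93% of all genes (2.51% higher and 2.42% lower).

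The direction of the means was lower for 29 of the 44 genes and higher for 15, with a median difference of -0.09 against 0.01 over all genes. Of the 14 expressed members 10 had a lower mean (median -0.56), while 55.1% of the 8752 expressed genes did (median -0.02). A mean at least 2-fold lower was found for 3 members, all expressed (Timp1, Adamts1 and Mmp3), beside 1.41% of expressed genes, and a mean at least 2-fold higher for 0, beside 0.983%. In 7 of the 44 the groups did not overlap, 5 lower and 2 higher in Mll3-null cells, beside 10.7% of all genes (5.31% lower and 5.44% higher). The spread within Mll3-null arrays exceeded that within WT arrays for 10 of the 14 expressed members, and for 67.1% of expressed genes. The median SD of these 14 was 0.86 in Mll3-null and 0.35 in WT, against 0.18 and 0.13 over expressed genes.

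**Figure D1:**
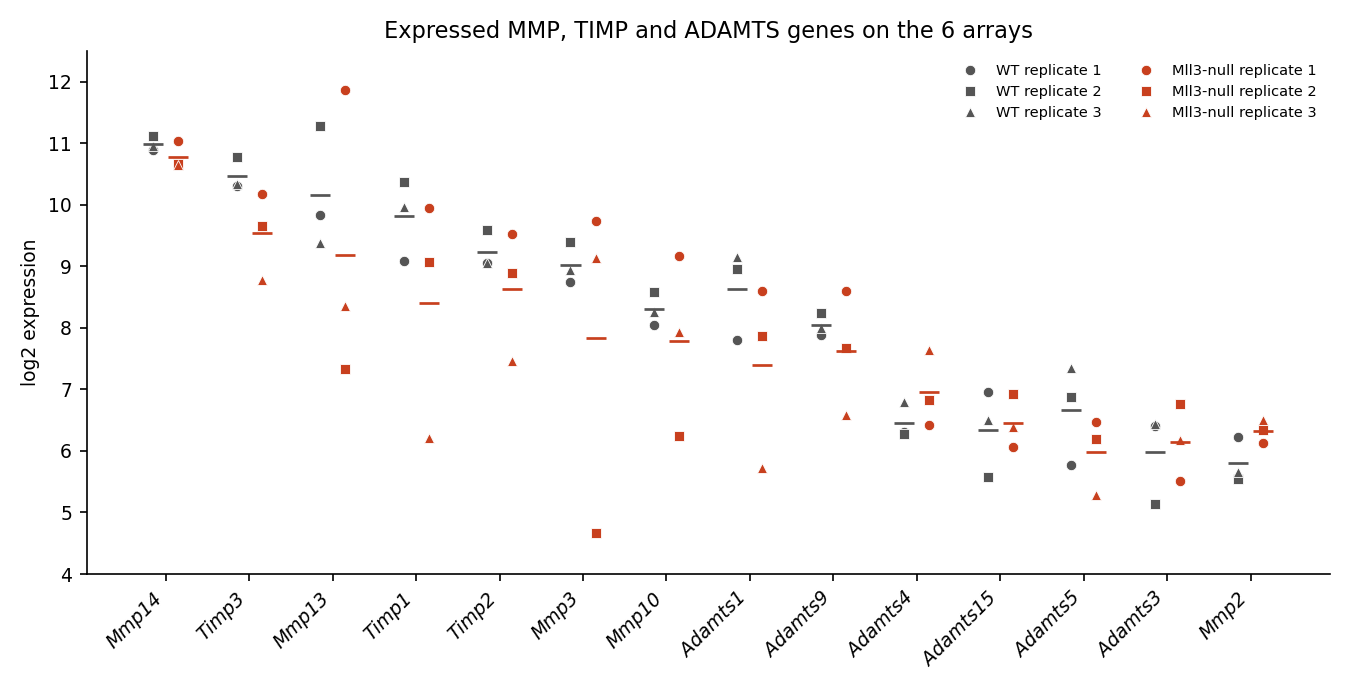
Log2 expression of the 14 expressed Mmp, Timp and Adamts genes on each array, WT in grey and Mll3-null in red, with a symbol for each replicate and a bar at the group mean (n = 3 each). The low outlying points are Mll3-null replicate 2 for Mmp3, Mmp10 and Mmp13, and Mll3-null replicate 3 for the Timp genes, Adamts1 and Adamts9. Levels of different genes come from different probe sets and are not compared.

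Stromelysins and collagenases are the secreted enzymes that open the matrix. Mmp3, stromelysin-1, cuts basement membrane proteins and activates other MMPs. It was at 8.74, 9.39 and 8.94 on WT replicates 1 to 3 and at 9.73, 4.67 and 9.14 on Mll3-null replicates 1 to 3. The array that differed was Mll3-null replicate 2, which lay 4.07 log2 units below every other array, while the other Mll3-null arrays lay in or above the WT range. The group difference was -1.18 ± 1.26 (SE), and its 95% interval ran from -4.21 to 1.85 (adjusted p = 0.87, limma). Without Mll3-null replicate 2 the difference was 0.41.

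Mmp10, stromelysin-2, is a close relative of Mmp3. It was at 8.05, 8.58 and 8.26 in WT and at 9.17, 6.24 and 7.93 in Mll3-null cells. Mll3-null replicate 2 was again the lowest array, 1.70 below the next one, and Mll3-null replicate 1 the highest. The difference of -0.52 ± 0.68 (95% interval -2.15 to 1.12) became 0.26 without Mll3-null replicate 2.

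Mmp13, collagenase-3, is the main enzyme for fibrillar collagen in rodents. It was at 9.84, 11.27 and 9.37 in WT and at 11.86, 7.33 and 8.36 in Mll3-null cells. Here the Mll3-null arrays lay on both sides of WT, replicate 1 above all WT arrays and replicates 2 and 3 below them. The difference was -0.98 ± 1.17 (95% interval -3.77 to 1.82, adjusted p = 0.88, limma), and -0.05 without Mll3-null replicate 2. The SD within Mll3-null was 2.77 for Mmp3, 2.38 for Mmp13 and 1.47 for Mmp10, which placed them above 99.8%, 99.6% and 98.2% of expressed genes. A value at least 1 log2 unit below all 5 other arrays on Mll3-null replicate 2 was found for 20 of 8752 expressed genes (0.229%), and 3 of these are Mmp3, Mmp10 and Mmp13. This measure was chosen after the values were seen, and the 3 genes neighbour each other on a chromosome.

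The basal markers were not low on that array: their summed level was 12.97 on Mll3-null replicate 2 and 12.31 to 13.01 in WT. Fibronectin (Fn1), a matrix protein that stromelysins cut, was also lowest there, at 7.84 against 9.57 to 10.45 on the other 5 arrays (named after its values were seen). The part of any of these in the result was not tested.

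Mmp3, Mmp10 and Mmp13 belong to a run of 10 Mmp genes on chromosome 9 with no other protein-coding gene between them in the GRCm38.p6 annotation. The order is Mmp13, Mmp12, Mmp1b, Mmp3, Mmp1a, Mmp10, Mmp8, Mmp27, Mmp20 and Mmp7. The other 7 genes of the run were not expressed by the limit used here, and 6 of them were dim. Mmp12, macrophage elastase, lies beside Mmp13. It was at 4.67, 4.76 and 4.14 in Mll3-null and 4.17, 4.93 and 4.11 in WT, so Mll3-null replicate 2 lay within the WT range. At this level a fall like that of Mmp3 could hardly show.

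Mmp1a and Mmp1b are related copies, the mouse counterparts of human interstitial collagenase. Whether their probe sets share signal was not tested. Mmp1b was at 4.38, 3.51 and 3.44 in WT and 5.04, 3.02 and 2.92 in Mll3-null cells. Like Mmp13 it was highest on Mll3-null replicate 1 and lower than all WT arrays on replicates 2 and 3. Mmp1a was at 4.48, 3.08 and 3.00 in WT and 2.92, 2.57 and 2.78 in Mll3-null cells. Its groups did not overlap, by a narrow margin, and WT replicate 1 lay 1.40 above all other arrays. The difference of -0.77 ± 0.39 (adjusted p = 0.84, limma) was -0.29 without WT replicate 1. Mmp8, neutrophil collagenase, also had groups that did not overlap, at 3.43, 3.76 and 3.41 in WT and 3.39, 3.25 and 3.35 in Mll3-null cells, a margin near the lower end of the scale. Its difference of -0.21 ± 0.12 was -0.09 without WT replicate 2. Mmp7, matrilysin, was dim on average too, with a difference of -0.43 ± 0.21 that was -0.26 without Mll3-null replicate 3.

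**Figure D2:**
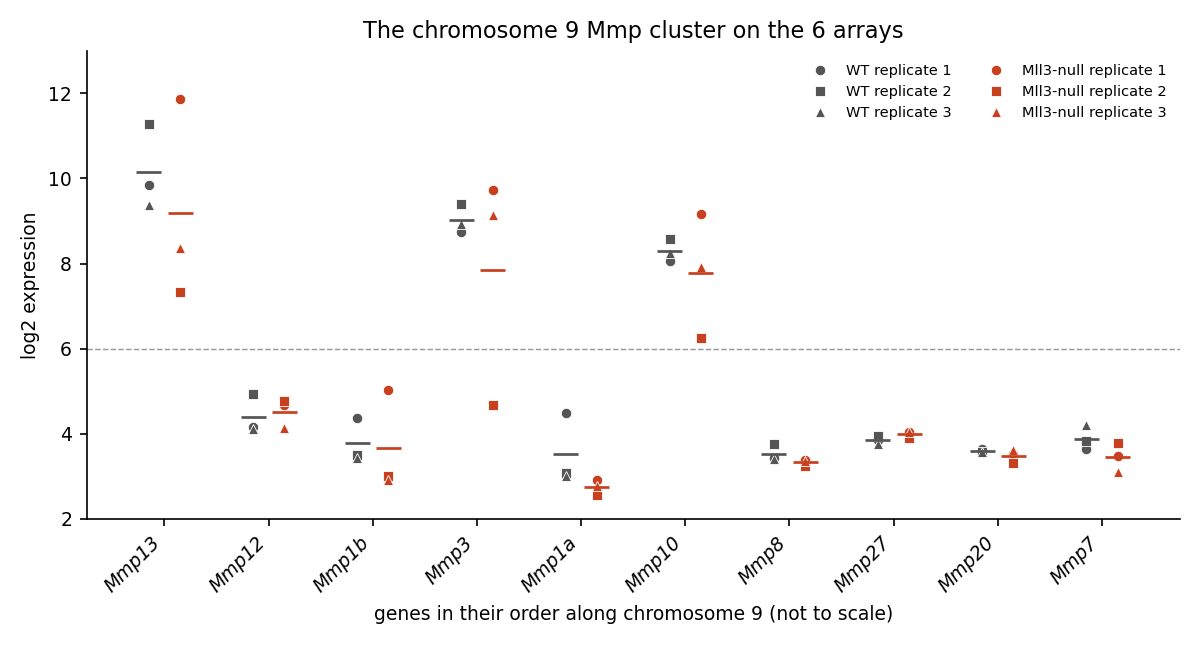
Log2 expression of the 10 neighbouring Mmp genes of chromosome 9 in their order (spacing not to scale), WT in grey and Mll3-null in red, with a symbol for each replicate, bars at group means (n = 3 each) and a dashed line at 6. Only Mmp13, Mmp3 and Mmp10 lie above the line on average, and in each of these 3 the square of Mll3-null replicate 2 is the lowest point and the circle of Mll3-null replicate 1 the highest.

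The promoters of these neighbours are shown because Mmp3, Mmp10 and Mmp13 were low on the same array and share a motif. AP-1, a dimer of Fos and Jun proteins, is the textbook activator of collagenase and stromelysin genes and binds the letters TGANTCA. This motif, which reads the same on both strands and was searched in the 250 bases before the gene start, was found for 8 of the 10 neighbours and for 0 of the 20 other members with a promoter in the RefSeq table. It occurs in 6.75% of all 32851 promoters of that table. The TATA box letters TATAAA, searched on both strands, were found for 7 of the 10 and 2 of the 20 (12.4% of all promoters). The 120 bases before the gene start follow, from RefSeq (GRCm38.p6), with the AP-1 letters in capitals.
Mmp13 (chr9:7272394-7272513, plus strand): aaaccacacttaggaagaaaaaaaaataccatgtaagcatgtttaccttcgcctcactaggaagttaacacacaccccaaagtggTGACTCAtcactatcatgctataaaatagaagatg
Mmp3 (chr9:7445702-7445821, plus strand): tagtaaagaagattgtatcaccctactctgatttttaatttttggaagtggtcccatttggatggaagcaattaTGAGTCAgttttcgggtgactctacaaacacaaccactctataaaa
Mmp10 (chr9:7502222-7502341, plus strand): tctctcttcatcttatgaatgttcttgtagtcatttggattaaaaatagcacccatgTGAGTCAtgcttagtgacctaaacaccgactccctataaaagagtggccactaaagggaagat
Mmp1a (chr9:7464021-7464140, plus strand): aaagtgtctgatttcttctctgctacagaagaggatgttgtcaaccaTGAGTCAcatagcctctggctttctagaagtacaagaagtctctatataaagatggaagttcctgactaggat
Mmp1b (chr9:7388027-7388146, minus strand): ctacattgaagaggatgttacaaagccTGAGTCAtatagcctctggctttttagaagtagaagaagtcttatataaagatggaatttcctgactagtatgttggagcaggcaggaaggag
In these promoters the match began 35 bases before the start of Mmp13, 46 before Mmp3, 63 before Mmp10, 73 before Mmp1a and 93 before Mmp1b. A match is a description of letters, not of binding. The dim genes Mmp1a and Mmp1b hold it as the expressed genes do.

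Of the AP-1 and ETS factors 11 of 13 listed genes were measured. The lowest value lay on Mll3-null replicate 2 for 1 of the 11, beside 16.0% of expressed genes. It lay on Mll3-null replicate 3 for 6, beside 28.3%. These are transcript levels, and the activity of AP-1 was not tested. Fos was at 6.72 on Mll3-null replicate 2 against 6.45 to 6.50 in WT, and Jun at 9.02 against 8.07 to 8.85. Junb was at 8.69, below the WT range of 9.03 to 9.20, and at 8.44 on Mll3-null replicate 3. These 3 genes were named after their values were seen. None of the 11 was called, in either direction. The smallest p belonged to Ets1, an ETS factor, at 7.65, 7.47 and 7.64 in WT and 7.23, 7.24 and 7.01 in Mll3-null cells (difference -0.43 ± 0.10, adjusted p = 0.84, limma). All Mll3-null arrays lay below all WT arrays for Ets1. Ets2 differed by -0.36 ± 0.16, and by -0.22 without Mll3-null replicate 2.

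The expressed TIMP inhibitors were low on Mll3-null replicate 3. Timp1, a secreted inhibitor of most MMPs, was at 9.08, 10.37 and 9.97 in WT and at 9.94, 9.07 and 6.21 in Mll3-null cells. Mll3-null replicate 3 lay 2.86 below every other array, and the other Mll3-null arrays reached from just under the lowest WT array into the WT range. The difference was -1.40 ± 0.93, or a mean 2.64-fold lower, and its 95% interval ran from -3.65 to 0.84 (adjusted p = 0.84, limma). Without Mll3-null replicate 3 it was -0.30, and without Mll3-null replicate 1 it was -2.17.

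Timp2 takes part in the activation of pro-MMP2 by MMP14 as well as in inhibition. It was at 9.06, 9.59 and 9.06 in WT and 9.53, 8.89 and 7.46 in Mll3-null cells, with replicate 3 again 1.43 below the next array. The difference of -0.60 ± 0.50 was -0.02 without Mll3-null replicate 3. Timp3, which binds to the matrix itself, was at 10.31, 10.78 and 10.33 in WT and 10.18, 9.66 and 8.77 in Mll3-null cells. It was the only 1 of 14 expressed members whose groups did not overlap, beside 11.6% of expressed genes. The margin was narrow: Mll3-null replicate 1 was at 10.18, 0.29 below the WT mean, and WT replicate 1 at 10.31. The difference was -0.93 ± 0.35, a mean 1.91-fold lower, and its 95% interval ran from -1.78 to -0.09 (unadjusted p = 0.035, adjusted p = 0.84, limma). It was -0.55 without Mll3-null replicate 3. Timp3 lies on chromosome 10. The 443 expressed genes there had a median of 0.22 on WT replicate 1, relative to the median over all arrays. This median was -0.02 on Mll3-null replicate 1, and from -0.05 to 0.01 over all arrays but WT replicate 1. The part of this shift in the narrow margin of Timp3 was not tested. Timp4 was dim, from 3.25 to 3.69 on all arrays.

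Timp1 lies inside the synapsin gene Syn1 and Timp3 inside Syn3 in the GRCm38.p6 annotation. Syn1 ran from 5.36 to 5.66 and Syn3 from 4.85 to 5.22 over the 6 arrays, both under the limit of 6 for an expressed gene. On Mll3-null replicate 3, where Timp1 and Timp3 were lowest, Syn1 was at 5.63 and Syn3 at 5.22. The difference was 0.06 ± 0.11 for Syn1 (adjusted p = 0.93, limma) and 0.14 ± 0.12 for Syn3 (adjusted p = 0.85, limma). How far a fall would show at this level is not known. Basal markers were low on the array where Timp1, Timp2 and Timp3 were low, with the summed level of 9.19 given above and Trp63, the basal transcription factor p63, at 5.02 against 7.86 to 8.84 elsewhere. The summed level of the fibroblast markers was lowest on the same array, through Postn, the only expressed gene of that list. The summed level of the luminal markers was highest there. The part of any of these lists in the result was not tested. In bulk RNA fewer cells of a type and less RNA per cell cannot be told apart. With that array left out, the differences of the 3 inhibitors were those given above, between -0.55 and -0.02.

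**Figure D3:**
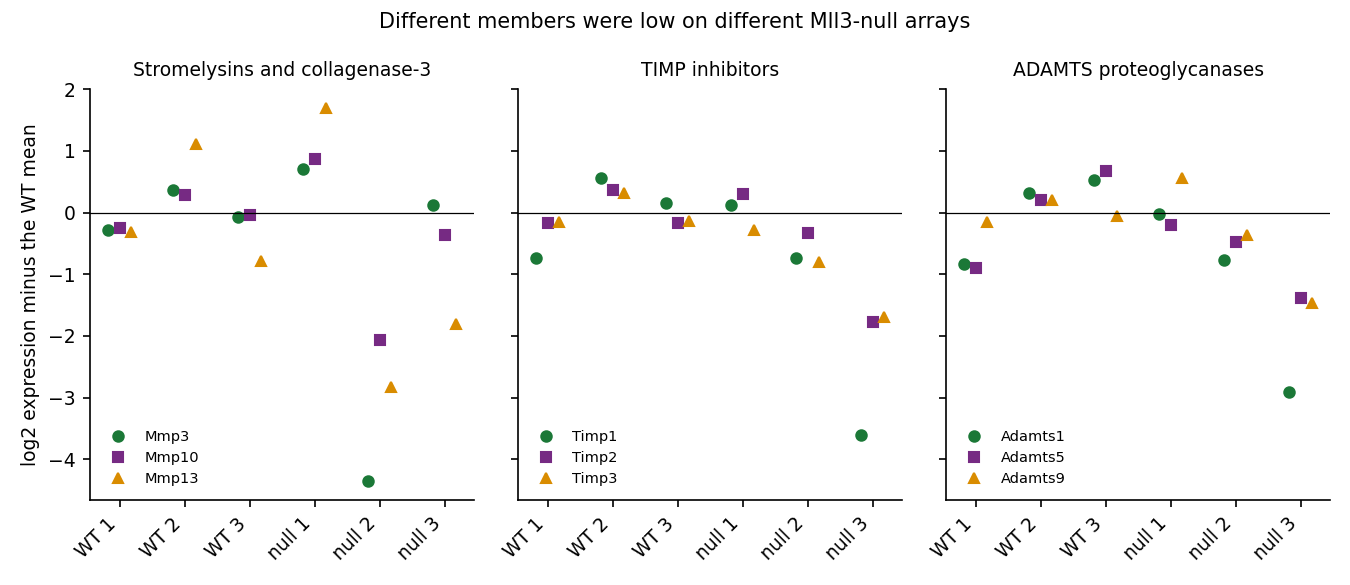
Log2 expression minus the WT mean for 3 proteases of the chromosome 9 run, 3 TIMP inhibitors and 3 ADAMTS proteoglycanases on each of the 6 arrays (null is Mll3-null), with 0 at the WT mean of each gene. The first panel is lowest on Mll3-null replicate 2 (mean -3.08 over the 3 genes), the others on Mll3-null replicate 3 (means -2.36 and -1.92). The genes of each panel were chosen after their values were seen, so these means follow from the choice. Not shown are Timp4 and the proteoglycanases Adamts4, Adamts8, Adamts15 and Adamts20. Relative to their WT means these lay at 0.20, 1.18, 0.11, 0.04 and -0.12 on Mll3-null replicate 3.

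Membrane-type and gelatinase genes came next. Mmp14, a membrane-anchored collagenase and the activator of pro-MMP2, was at 10.89, 11.11 and 10.96 in WT and 11.03, 10.66 and 10.64 in Mll3-null cells. Mll3-null replicates 2 and 3 were below all WT arrays and replicate 1 was within them. The difference was -0.21 ± 0.13 with a 95% interval from -0.53 to 0.12, a narrow interval beside those of Mmp3 and Mmp13.

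Mmp2, gelatinase A, the substrate of that activation, was one of 4 expressed members with a higher mean. It was at 6.22, 5.55 and 5.65 in WT and 6.13, 6.34 and 6.51 in Mll3-null cells. The groups overlapped through WT replicate 1 and Mll3-null replicate 1. The difference was 0.52 ± 0.20 (95% interval 0.04 to 1.00, unadjusted p = 0.039, adjusted p = 0.84, limma). Mmp9, gelatinase B, went the other way at a level under 6. It was at 4.74, 5.11 and 5.06 in WT and 4.45, 4.45 and 4.61 in Mll3-null cells, without overlap of the groups (difference -0.47 ± 0.13, 95% interval -0.77 to -0.16, unadjusted p = 0.0085, adjusted p = 0.84, limma).

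Mmp16, a membrane-type MMP, had the widest difference in the higher direction. It was at 3.95, 3.77 and 4.16 in WT and 3.82, 5.58 and 5.32 in Mll3-null cells. Mll3-null replicates 2 and 3 stood above all WT arrays and replicate 1 lay among them. The difference was 0.95 ± 0.45, a mean 1.93-fold higher (95% interval -0.12 to 2.02, adjusted p = 0.84, limma), 0.61 with Mll3-null replicate 2 left out and 1.49 with Mll3-null replicate 1 left out. The other measured membrane-type genes had small differences: the WT and Mll3-null means were 4.54 and 4.68 for Mmp17, 5.60 and 5.56 for Mmp24, and 4.39 and 4.29 for Mmp25. Mmp15 was not analysed here.

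The ADAMTS proteoglycanases cut versican and aggrecan. Adamts1 was at 7.80, 8.95 and 9.15 in WT and 8.60, 7.86 and 5.72 in Mll3-null cells. Mll3-null replicate 3 lay 2.08 below every other array, and the other Mll3-null arrays were inside the WT range. The difference of -1.24 ± 0.76, a mean 2.36-fold lower (95% interval -3.05 to 0.58, adjusted p = 0.84, limma), was -0.40 without Mll3-null replicate 3. It was -1.84 without Mll3-null replicate 1.

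Adamts5, a major aggrecanase of cartilage, is the next gene to Adamts1 on chromosome 16. It was at 5.77, 6.88 and 7.34 in WT and 6.47, 6.19 and 5.28 in Mll3-null cells. Both genes were lowest on Mll3-null replicate 3 and had their highest value on WT replicate 3. The difference of Adamts5 was -0.68 ± 0.47 (95% interval -1.80 to 0.43), -0.33 without Mll3-null replicate 3 and -1.13 without WT replicate 1.

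Adamts9, a versican-cutting enzyme, was at 7.88, 8.24 and 7.99 in WT and 8.60, 7.67 and 6.58 in Mll3-null cells. It was highest on Mll3-null replicate 1 and lowest on replicate 3, so the Mll3-null arrays enclosed the WT arrays. The difference of -0.42 ± 0.47 was 0.09 without Mll3-null replicate 3. Of the expressed members 7 of 14 had their lowest value on Mll3-null replicate 3, beside 28.3% of expressed genes, and 3 of 14 on Mll3-null replicate 2, beside 16.0%. The highest value lay on Mll3-null replicate 1 for 4 of 14, beside 13.1%. On Mll3-null replicate 3 a value at least 1 log2 unit below all 5 other arrays was found for 4 of the 14 (Timp1, Timp2, Adamts1 and Adamts9), beside 3.07% of expressed genes. These counts by array were chosen after the values were seen. Versican (Vcan), a substrate of the proteoglycanases, was at 7.54, 8.55 and 8.92 in WT and 7.77, 8.14 and 6.64 in Mll3-null cells, also lowest on Mll3-null replicate 3.

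Adamts4, an aggrecanase, was highest on the array where Adamts1, Adamts5 and Adamts9 were lowest. It was at 6.31, 6.28 and 6.79 in WT and 6.42, 6.83 and 7.64 in Mll3-null cells. Only Mll3-null replicates 2 and 3 were above all WT arrays. The difference was 0.50 ± 0.32 (95% interval -0.26 to 1.27) and 0.16 without Mll3-null replicate 3. It is the only member on chromosome 1, whose 510 expressed genes had a median 0.30 above the 6-array median on Mll3-null replicate 3 and 0.09 above it on replicate 2. The part of this shift in the value of Adamts4 was not tested.

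Adamts15 and Adamts3 were expressed near the limit and were lowest on WT replicate 2. Adamts15, a versicanase, was at 6.95, 5.57 and 6.51 in WT and 6.06, 6.93 and 6.39 in Mll3-null cells. Adamts3, which removes the N-propeptide of procollagen, was at 6.40, 5.13 and 6.43 in WT and 5.51, 6.76 and 6.18 in Mll3-null cells. For both, the Mll3-null arrays overlapped the WT arrays, and the differences of 0.12 ± 0.38 and 0.16 ± 0.45 turned to -0.27 each without WT replicate 2 and to -0.12 and -0.14 without Mll3-null replicate 2. Adamts8, the neighbour of Adamts15 on chromosome 9, averaged 4.43 in WT and 4.39 in Mll3-null cells. Adamts14, another procollagen N-proteinase, averaged 5.76 and 5.68, and Adamts2 was not analysed here.

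Among the members with a mean from 4 to 6, Adamts12 and Adamts17 were higher on every Mll3-null array than on any WT array. Adamts12, which cuts cartilage oligomeric matrix protein, was at 4.49, 4.48 and 4.54 in WT and 4.78, 5.10 and 5.38 in Mll3-null cells. The WT arrays lay close together and the Mll3-null arrays spread upwards. The difference of 0.59 ± 0.16 (95% interval 0.21 to 0.96) had the smallest unadjusted p of the 44 genes, 0.0080, and an adjusted p of 0.84 (limma). It kept its direction without any one array, between 0.44 and 0.74. Adamts17, linked to microfibrils, was at 4.86, 5.15 and 4.89 in WT and 5.29, 5.30 and 5.20 in Mll3-null cells. The margin between the groups was small, and the difference was 0.30 ± 0.11 (95% interval 0.04 to 0.56, unadjusted p = 0.029).

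Adamts13, the protease of von Willebrand factor, was at 4.78, 4.80 and 4.87 in WT and 4.67, 4.73 and 4.52 in Mll3-null cells. Its groups did not overlap and its difference was -0.18 ± 0.09. Adamts10, a microfibril-associated member, averaged 5.59 in WT and 6.05 in Mll3-null cells, with a difference of 0.46 ± 0.27 that was 0.18 without Mll3-null replicate 3. Adamts7, a relative of Adamts12 with the same substrate, averaged 6.14 and 5.70. Its difference of -0.44 ± 0.33 was -0.06 without WT replicate 3. The groups overlapped for Adamts10 and Adamts7.

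The remaining members of that range had differences between -0.19 and 0.15, each with a 95% interval that includes 0. Their WT and Mll3-null means were 5.22 and 5.03 for Mmp11, stromelysin-3, 4.40 and 4.52 for Mmp12, 4.82 and 4.83 for Mmp19, and 4.36 and 4.51 for Mmp23. They were 4.86 and 4.83 for Mmp28, epilysin, 4.52 and 4.51 for Adamts6, 4.37 and 4.31 for Adamts16, and 4.14 and 4.16 for Adamts19. The 10 dim members had differences between -0.77 for Mmp1a and 0.14 for Mmp27. The dim genes not described above were Mmp20 (enamelysin of teeth), Mmp21, Mmp27, Adamts18 and Adamts20, whose groups overlapped.

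**Figure D4:**
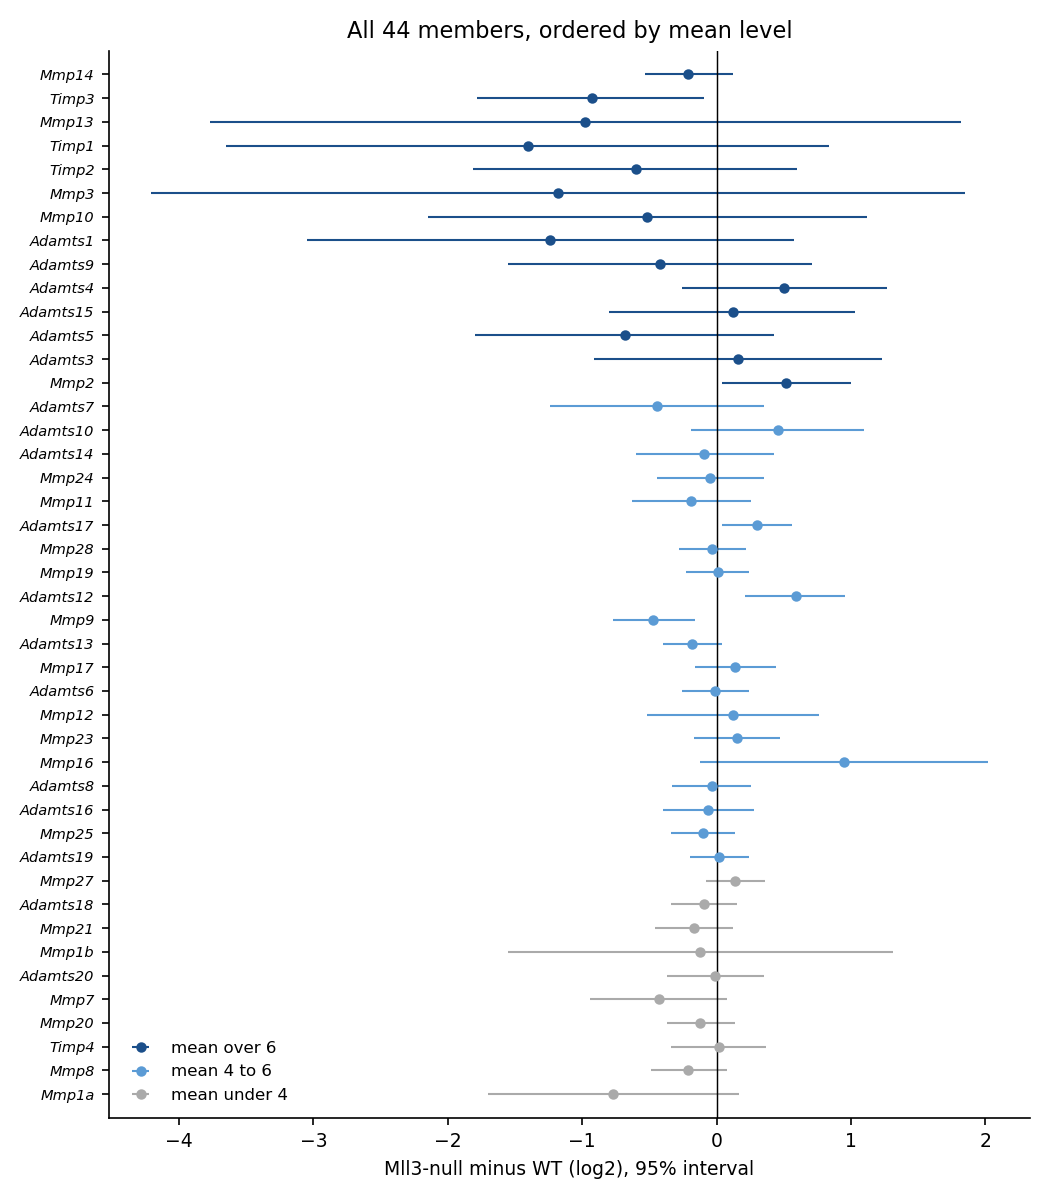
Mll3-null minus WT difference (log2) of all 44 genes with its 95% interval from limma, n = 3 arrays each, ordered by mean level and coloured by level class. Intervals exclude 0 for Timp3, Mmp2, Adamts17, Adamts12 and Mmp9 before any correction. The widest are those of Mmp3 (-4.21 to 1.85) and Mmp13 (-3.77 to 1.82).

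Other genes of extracellular proteolysis were read from 10 lists of activators, relatives, regulators, substrates and inducers. Of 84 measured genes of 89 listed, 0 were called in either direction, 44 had a lower and 40 a higher mean, and the median difference was -0.02. An unadjusted p under 0.05 was found for 5, all lower, beside 4.93% of all genes in either direction and 2.42% lower. The groups did not overlap for 7 of them, again all lower, beside 10.7% of all genes in either direction and 5.31% lower. Of the 84 genes 54 were expressed, and 11.6% of expressed genes had groups that did not overlap, in either direction.

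Plasminogen activators start the plasmin cascade that activates MMP precursors, and 4 of 6 measured genes of that list had a lower mean. Plat, tissue plasminogen activator, was at 7.14, 8.09 and 8.17 in WT and 7.21, 6.30 and 5.62 in Mll3-null cells. Mll3-null replicates 2 and 3 were below all WT arrays, and the difference was -1.42 ± 0.45 (unadjusted p = 0.017, adjusted p = 0.84, limma). Plaur, the urokinase receptor, differed by -0.71 ± 0.30. Urokinase itself (Plau) was at 8.93, 9.28 and 8.68 in WT and 8.40, 8.39 and 6.44 in Mll3-null cells, without overlap (named after its values were seen).

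Cytokines that induce MMPs had a lower mean for 5 of 7 genes. Tnf was at 8.81, 9.26 and 8.75 in WT and 8.73, 7.98 and 7.84 in Mll3-null cells, with all Mll3-null arrays below all WT arrays, if only just for replicate 1. Its difference was -0.75 ± 0.26 (adjusted p = 0.84, limma). Il1b was dim, with a difference of -0.22 ± 0.08. Il1a, a cytokine of stressed epithelium, was at 9.96, 10.54 and 8.45 in WT and 9.80, 7.16 and 3.67 in Mll3-null cells (named after its values were seen). Unlike Mmp3, Il1a was far lower on Mll3-null replicate 3 than on replicate 2.

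Proprotein convertases cut the precursors of membrane-type MMPs and ADAMTS proteases. Pcsk6 was at 7.71, 8.37 and 7.78 in WT and 7.64, 7.12 and 7.05 in Mll3-null cells, without overlap (difference -0.68 ± 0.23, adjusted p = 0.84, limma), and Furin differed by 0.22 ± 0.16, or 0.09 without Mll3-null replicate 3. Among 9 ADAM sheddases, relatives anchored in the membrane, 6 had a lower mean. Adam12 differed by -0.99 ± 0.55 and Adam8 by -0.92 ± 0.61, which became -0.55 without WT replicate 2 for Adam12 and -0.24 without Mll3-null replicate 3 for Adam8. Of 6 ADAMTS-like proteins, which lack the protease domain, Adamtsl4 differed by -0.73 ± 0.38 and Papln, papilin, by 1.13 ± 0.72. Without Mll3-null replicate 3 these were -0.27 and 0.51.

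The cell-surface and matrix regulators of MMPs went both ways, 5 of 10 with a lower mean. Pcolce2, an enhancer of procollagen processing, differed by -0.62 ± 0.28 (-0.41 without WT replicate 1) and the proteoglycan Spock2 by 0.29 ± 0.13. Of 9 cathepsins and cystatins, lysosomal proteases and their inhibitors, 6 had a lower mean, with Cst6 at -0.94 ± 0.43 and Ctsd at -0.21 ± 0.14. Without WT replicate 2 these were -0.44 and -0.09. Epithelial serine proteases and inhibitors had a higher mean for 6 of 8, with Prss8, prostasin, at 0.46 ± 0.23 and the inhibitor Spint1 at -0.21 ± 0.13. These were 0.28 without Mll3-null replicate 3 and -0.13 without WT replicate 2. Of 14 measured matrix substrates 8 had a higher mean. Thrombospondin (Thbs1), a substrate of Adamts1, differed by -0.58 ± 0.25 without overlap of the groups, and by -0.29 without Mll3-null replicate 3. Vcan differed by -0.82 ± 0.48, by -0.38 without Mll3-null replicate 3 and by -1.22 without WT replicate 1. None of these genes was called.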

How the data were processed

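Total RNA of 6 samples was read on single-channel Affymetrix arrays. The software was Affymetrix Expression Console, per the submitters' processing notes, and the sources do not say how it summarized and scaled the probes, nor the genome build. The deposited values are log2 expression, judged from their range of 1.72 to 13.56. Their quartiles are nearly equal between arrays, so they were on a common scale when deposited, and a change of total RNA would not show. There were 0 other columns of sample values.

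Of 41345 probe sets, 23521 list exactly 1 gene symbol. The probe set with the highest mean over 6 arrays stood for a gene, which left 22180 genes. The comparison used limma 3.58.1 with R 4.3.3 (lmFit, eBayes, genotype as the only term, two-sided), adjusted by Benjamini-Hochberg over all genes, and tested on simulated data. No test was made of scores over several members, and an exact permutation test of 3 against 3 arrays cannot go below 0.1. The members and lists were chosen with earlier results of these data known. Every member is accounted for: those with a mean over 6 by array and those from 4 to 6 by group means. Those under 4 are covered by the range of their differences. Where groups do not overlap, values by array are given too. Mmp16 is given by array, and so are Mmp1b and Mmp12, after their values were seen. Of the other lists, the 2 genes with the smallest p are named. Further genes of those lists are marked as chosen after their values were seen. Krt14, Trp63, Postn and the synapsin genes were also picked by name and carry no such mark. Deviations of same-numbered arrays correlated at 0.035, 0.079 and 0.312 over the genes, so the numbers were not taken to pair samples. Other settings tried were the variance model, weights for arrays, low-value filters, normalization, probe sets, the block, a threshold of 0.01 and leaving out arrays. Chromosomes and neighbours came through gene identifiers from GRCm38.p6, and promoters by symbol, found for 30 of 44 members.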

Additional observations from a re-analysis of the deposited data

How the results depend on the processing

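Under every alternative, the calls stayed at 0 for all genes and at 0 for the 44 members: an intensity trend, robust fitting, array weights, both filters, both normalizations, all probe sets averaged, the replicate block, a threshold of 0.01 and leaving out arrays. Counts at an unadjusted p under 0.05 did move. Over all genes the count of 1093 was 2504 with array weights, and 716 to 2742 when an array was left out (Mll3-null replicate 2 for the lowest, replicate 1 for the highest). It was 721 for genes with a mean of 4 or more and 448 for those of 6 or more. Both filters left fewer genes to test, so a smaller count there is not by itself a smaller share. Over the members the count of 5 was 2 among the 14 with a mean of 6 or more, and between 2 (without WT replicate 3) and 15 (without Mll3-null replicate 1). It was 3 when Mll3-null replicate 2 was left out. With a mean of 6 or more, 10 members had a lower mean and the median was -0.56, because only the 14 expressed members were counted. Their own differences were unchanged. With the replicate block 6 members had an unadjusted p under 0.05 and 1290 of all genes did, and the numbers share no stated source. Of 59 genes with alternatives, 43 kept their direction throughout, and 16 turned when an array was left out. Leaving out single arrays gave -2.12 to 0.41 for Mmp3, -1.21 to 0.26 for Mmp10, -0.91 to 0.09 for Adamts9, -0.27 to 0.42 for Adamts15, -0.27 to 0.48 for Adamts3, -0.27 to 0.15 for Adamts14, -0.21 to 0.09 for Mmp24, -0.11 to 0.01 for Mmp28, -0.06 to 0.07 for Mmp19, -0.07 to 0.07 for Adamts6, -0.02 to 0.38 for Mmp12, -0.12 to 0.05 for Adamts8, -0.17 to 0.03 for Adamts16, -0.03 to 0.06 for Adamts19, -0.81 to 0.25 for Mmp1b and -0.11 to 0.41 for Kmt2c. Without WT replicate 1 and Mll3-null replicate 3 together the values were 0.02 for Adamts9, 0.13 for Mmp24, 0.05 for Mmp28, -0.02 for Adamts19 and 0.55 for Mmp1b. Array weights gave 0.11 for Adamts14, 0.14 for Mmp24 and 0.01 for Adamts6. Quantile normalization gave -0.01 and median centring -0.02 for Mmp19, and median centring -0.00 for Adamts19. The cause of these turns was not tested. The signal over background of the dim genes is unknown, which limits what their small differences show.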
